A study of Rattus norvegicus with 2 samples.

Results

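Ion-pumping and lipid-flipping ATPases are membrane proteins that use ATP to move ions or phospholipids. Their transcripts were examined in a list of regions called as enriched for N6-methyladenosine (m6A), a methyl mark on adenosines of messenger RNA. Members were the peaks whose deposited gene name fits the ATPase subfamilies Atp1, Atp2, Atp4, Atp6, Atp7, Atp8, Atp9, Atp10, Atp11 or Atp13, each followed by a letter. The rule took 35 of 8512 peaks, in 19 of 4212 gene names. The mitochondrial ATP synthase genes are named Atp5 and are not members.

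The data came from primary neurons of the hippocampus of newborn Sprague-Dawley rats, treated with AraC on day 7 in vitro and given lead acetate (PbAc) on day 12 for 48 h. The dose is 5 mM in the sample labels and 5 µM in the study's design, and the exposure ended on day 13 or 14, depending on the label. The groups were 1 immunoprecipitate (IP) made with an m6A antibody and 1 input, both from exposed neurons, and unexposed neurons are not analysed here, so the values describe exposed cells and not a response to lead. With 1 library per group no difference between genes or classes could be tested against replicate error, and the table holds no read counts, so the depth is unknown. Fold enrichment is the linear ratio of the IP over the local background, and the score is 10 times the −log10 of p, both as the authors' peak caller gave them for each peak. The peak caller's p reached 0.499 in the list and was at most 0.05 for 71.8% of peaks. A listed peak is therefore not always a well-supported one. Coordinates follow the table, with starts counted from 1, on a genome build that the sources used here do not name.

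P-type ATPases are phosphorylated on an aspartate during each transport cycle. The Na/K pump sets the sodium and potassium gradients that electrical signalling draws on, and calcium pumps of the plasma membrane and endoplasmic reticulum bring calcium back down after activity. The vacuolar proton pump, built from a cytosolic V1 part and a membrane V0 part, acidifies lysosomes and makes the proton gradient by which synaptic vesicles load transmitter. P4 ATPases flip phospholipids from the outer to the inner leaflet of a membrane, and copper ATPases load or export copper. In m6A work a peak shows that the antibody recovered a stretch of RNA, and the number of reads in that stretch also depends on how abundant the transcript is.

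A listed peak was found for 17.3% of all coding genes in a current gene table. Of 12 neuron markers 8 had one (66.7%), all 8 at a p of at most 1e-10, with a background of 40.6% of listed genes. Of 30 markers of other cells 5 had one (16.7%), a share near that of all coding genes. They were 1 of 8 astrocyte, 1 of 8 oligodendrocyte lineage, 2 of 7 microglia and 1 of 7 vessel and fibroblast markers. Of these 5 only the vessel and fibroblast marker Col3a1, at 7.2-fold with a score of 212.81, reached a p of at most 1e-10. Among astrocyte markers Sox9 had a peak of 5.78-fold, and Gfap and Aqp4 had none. The neuron markers Tubb3, Nefl, Stmn2 and Camk2a had none either. Expression is not in the table, so a missing peak does not show that a transcript was absent.

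The classes separated by fold rather than by number of peaks. All 21 peaks of the Na/K, calcium and vacuolar proton pumps had a fold enrichment between 6 and 37.72. All 12 peaks under flippase names lay between 2.23 and 5.05, and the ranges did not overlap. The ion pump classes overlapped one another in fold. The Atp13a peaks fell in the flippase range (Atp13a3, 4.37) and in the ion pump range (Atp13a2, 6.47). The median of all 8512 peaks was 5.9 (quartiles 4.41 and 8.45), and 49.9% of all peaks lay below it. Every ion pump peak lay above that median and every flippase peak below it. By gene, the highest fold had a median of 11.19 over the 11 ion pump genes and 4.48 over the 6 flippase names, against 6.62 over all gene names with a peak. Copper and gastric ATPases had no listed peak.

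**Figure D1:**
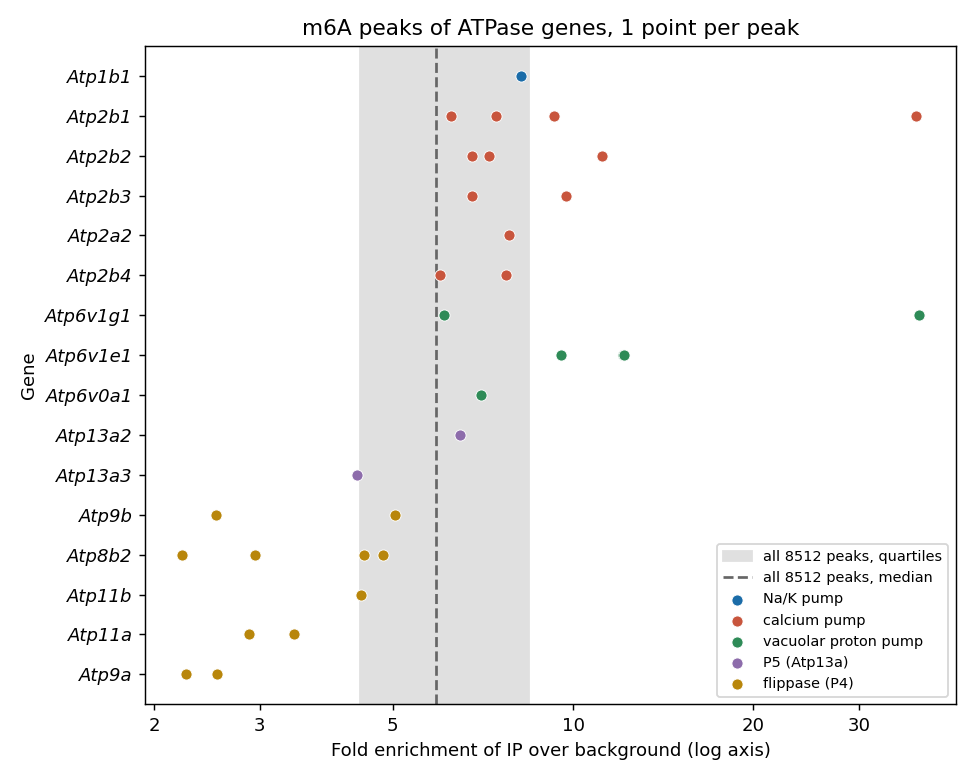
Fold enrichment of the IP over the background (x axis, log scale) for 32 ATPase peaks of 16 genes, with genes on the y axis, colours for classes, and the median and quartiles of all 8512 peaks as a dashed line and a grey band. Ion pump peaks lie at 6 and above, flippase peaks at 5.05 and below, and the Atp8b2 name holds peaks on a transcript of another gene.

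Peaks per gene did not follow the same order. The calcium pumps had 12 peaks in 5 genes (2.4 per gene), the vacuolar proton pump 6 peaks in 3 genes (2 per gene), and the flippase names 12 peaks in 6 genes (also 2 per gene). The Na/K pump had 3 peaks in 3 genes and the Atp13a group 2 in 2. The ATPases together had 1.84 peaks per listed gene, against 2.02 over all gene names. Genes with 2 or more peaks made up 52.6% of the ATPases (10 of 19), with a background of 44.9%. Counted against all coding genes of each class in a current gene table, the calcium pumps had 1.33 peaks per gene, flippases 0.8 (0.533 without the Atp8b2 name, whose gene ID belongs to another gene), the Na/K pump 0.375 and the vacuolar proton pump 0.222.

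**Figure D2:**
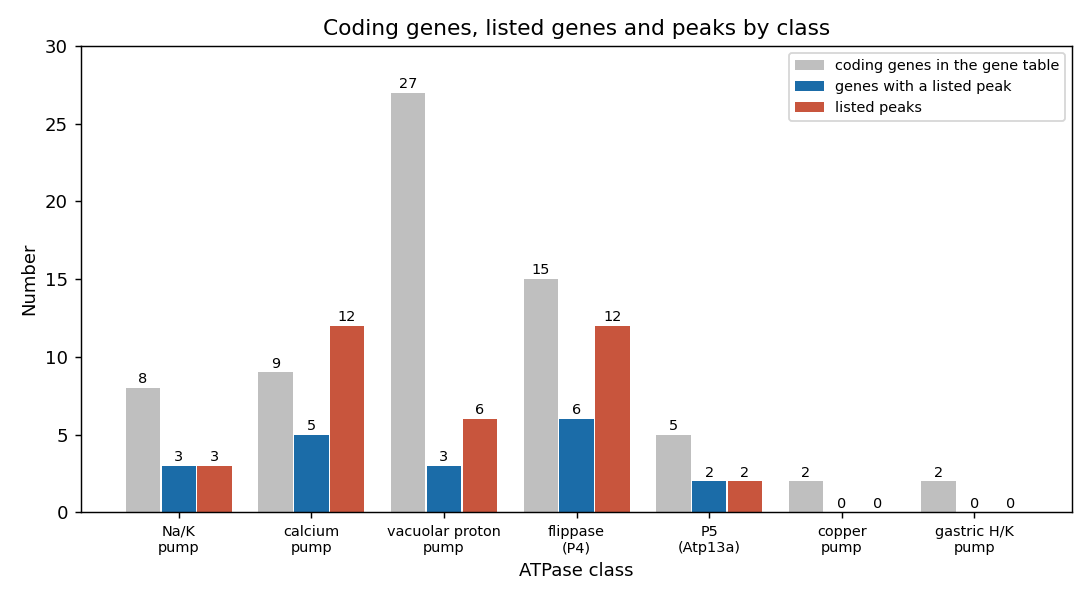
Number (y axis) of protein-coding genes in the gene table, of genes with a listed peak and of listed peaks, for each ATPase class (x axis). Classes are by name pattern: the vacuolar proton pump has 27 coding genes and 3 with a peak, and the calcium pumps have 9 and 5.

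The share of strong peaks over all ATPases was close to that of the whole list. A fold of 10 or more was reached by 7 of the 35 peaks (20%), with a background of 17.3% of all peaks. At a p of at most 1e-10 there were 14 (40%), with a background of 32.9%. At a p of at most 0.05 there were 25 (71.4%), with a background of 71.8%. These shares hide a split by class. All 7 peaks of 10-fold or more and all 14 at a p of at most 1e-10 belonged to ion pumps. All 21 ion pump peaks, but 3 of 12 peaks under flippase names, reached a p of at most 0.05. Without the Atp8b2 name, whose gene ID belongs to another gene, 1 of 8 did.

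The 3 Na/K pump genes with a peak had 1 each. Atp1b1, a beta subunit that takes the catalytic subunit to the plasma membrane, had a peak of 8.18-fold at bases 87641735 to 87641967 of chromosome 13, with a score of 164.04. Of all peaks in the table, 73.2% had a lower fold. Atp1b2, a beta subunit typical of astrocytes, had no listed peak, and neither did Atp1a4, Atp1b3 or Atp1b4.

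All 4 genes of the plasma membrane calcium pump, which exports calcium from the cell, had at least 2 peaks. They held 11 of the 12 calcium pump peaks. Atp2b1, the most widely expressed of these pumps, had 4 peaks on chromosome 7. Its strongest, of 37.4-fold with a score of 3100, spanned bases 41154017 to 41154049, and its fold ranks 62nd of 8512. The score of 3100 is one at which 168 peaks of the table stand. This region was 33 bases long, shorter than any other ATPase region. The other Atp2b1 peaks had folds of 9.29, 7.44 and 6.26 and scores of 465.09, 177.44 and 29.04. The first of them began 74.8 kb from the strongest peak, and the gaps between these 3 were 3.98 and 0.781 kb. The gene therefore had 1 peak far above the rest, with a ratio of 5.97 between its highest and lowest fold.

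The other plasma membrane calcium pumps had more even peaks. Atp2b2, prominent in cerebellum and hair cells, had 3 peaks on chromosome 4 with folds of 11.19, 6.78 and 7.23. Their scores were 258.08, 367.93 and 47.45, so its highest score was not at its highest fold. Atp2b3, found mainly in brain, had folds of 9.73 and 6.79 with scores of 94.61 and 42.2. The Atp2b3 peaks are on chromosome 1 in the table, whereas the gene lies on X in the current gene table, and the locus is uncertain. Atp2b4 had folds of 7.73 and 6 with scores of 153.54 and 26.86 on chromosome 13. In order of highest fold the genes ran Atp2b1, Atp2b2, Atp2b3 and Atp2b4, and their lowest peaks lay between 6 and 6.79. That order turned on the region of 33 bases: with regions of at least 100 bases Atp2b1 stood at 9.29, below Atp2b2 and Atp2b3.

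Among the pumps of internal stores only Atp2a2, which fills the endoplasmic reticulum with calcium, had a peak. It reached 7.83-fold and a score of 127.29, at bases 41434651 to 41435274 of chromosome 12. At 624 bases it was the longest ATPase region, where the median of the 35 was 126 bases and that of all peaks 161. Atp2a1 and Atp2a3 of the same family, and the Golgi pumps Atp2c1 and Atp2c2, had no listed peak.

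The vacuolar proton pump had its strongest peaks in V1 subunits. Atp6v1g1, a subunit of the peripheral stalk, had the highest fold of all ATPases, 37.72 with a score of 2286.63, at bases 83481867 to 83482095 of chromosome 5. Its fold ranks 60th of 8512. A second Atp6v1g1 peak, 3.73 kb away, was 6.09-fold with a score of 61.31. Atp6v1e1, the other stalk subunit with peaks, had 3 on chromosome 4. Their folds were 12.14, 12.17 and 9.55 and their scores 177.45, 479.44 and 136.11. The peaks of Atp6v1e1 were thus close in fold, while those of Atp6v1g1 differed by a ratio of 6.19. Atp6v0a1, a large V0 subunit through which protons pass, had 1 peak on chromosome 10, at 7.03-fold with a score of 35.05.

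Of 27 coding genes of the Atp6 pattern 3 had a listed peak (11.1%), with a background of 17.3% of coding genes. Those without one included the catalytic V1 subunit Atp6v1a, the nucleotide-binding Atp6v1b2, the proteolipid ring gene Atp6v0c and the accessory genes Atp6ap1 and Atp6ap2. By name alone, which may take in genes that are not subunits, V1 had 2 of 15 genes with a peak, V0 had 1 of 9 and the accessory genes 0 of 3. The gene table holds pseudogenes of Atp6v1e1 and Atp6v1g1 and the related gene Atp6v1g1l1. How reads were divided among such copies is not stated, so the values of both genes are uncertain.

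Flippase names carried weak peaks. Atp11a and Atp11b encode flippases of the plasma membrane and endosomes. Atp11a had folds of 3.43 and 2.88 with scores of 5.12 and 4.58 on chromosome 16, and its regions lay 46.4 kb apart. Atp11b had 1 peak, 4.43-fold with a score of 30.05, at bases 142019144 to 142019191 of chromosome 2. Of these genes only Atp11b reached a p of at most 0.05.

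Atp9a and Atp9b are P4 ATPases of endosomes and the Golgi, and Atp9b held the highest fold under a flippase name. Atp9a had folds of 2.55 and 2.26 with scores of 3.65 and 9.19 on chromosome 3, 632 bases apart. Atp9b had folds of 5.05 and 2.54 with scores of 10.69 and 8.96 on chromosome 18, 964 bases apart. Each pair became 1 region when regions within 1000 bases were joined. The p of all 4 peaks was between 0.0853 and 0.432.

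The strongest scores under a flippase name did not come from a flippase transcript. The name Atp8b2 held 4 peaks on chromosome 2, with folds of 2.95, 2.23, 4.48 and 4.82 and scores of 8.35, 3.19, 38.98 and 82.77. The last 3 were tied to a RefSeq transcript that the current gene table gives to Ubap2l, a gene of a ubiquitin-associated protein, and the deposited gene ID is that of Ubap2l too. In the gene table Atp8b2 is an older name of Ubap2l and also the symbol of another gene on the same chromosome. The first peak, 61.4 kb away on an Ensembl transcript, carries the same gene ID, and the table does not settle which gene it belongs to. Without this name the flippases had 8 peaks in 5 genes (1.6 per gene), with folds of 2.26 to 5.05, and 1 of the 8 peaks reached a p of at most 0.05. The neuronal flippases Atp8a1 and Atp8a2 had no listed peak, nor did any Atp10 gene.

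The Atp13a group, of which Atp13a2 and Atp13a3 move polyamines out of endosomes and lysosomes, had 1 peak within the ion pump range of folds and 1 within the flippase range. Atp13a2, a gene of inherited parkinsonism in humans, had 1 peak of 6.47-fold on chromosome 5. Its score was only 6.08, a p of 0.247. Atp13a3 had 1 peak on chromosome 11, at 4.37-fold with a score of 14.34. Atp13a1, Atp13a4 and Atp13a5 had no listed peak. The copper pumps Atp7a and Atp7b and the gastric pump genes Atp4a and Atp4b also had none.

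Fold and score did not carry the same information. Over the 35 peaks their Spearman correlation was 0.898, and over all 8512 peaks 0.834, where peaks of a gene share its transcript and all share both libraries. At folds of 11 to 13, where 369 peaks of the table lie with a median score of 406.51, Atp2b2 had a score of 258.08. The scores of Atp6v1e1 there were 177.45 and 479.44, so peaks of like fold in 1 gene differed in score. The peak caller's p falls as the read number grows at a given fold. Read numbers are not in the table, so their part was not tested.

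**Figure D3:**
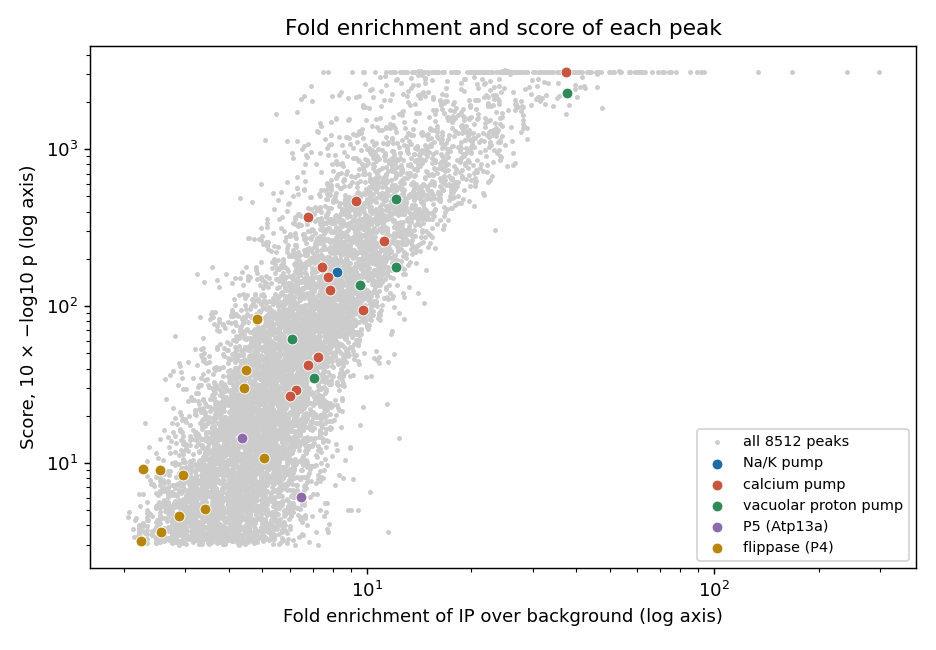
Score, 10 times the −log10 of p (y axis, log scale), against fold enrichment (x axis, log scale) for all 8512 peaks in grey and 32 ATPase peaks of 16 genes in colour by class. Flippase peaks sit at the lower left, and the strongest Atp2b1 peak stands at a score of 3100.

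Peaks of 1 gene name were usually several kilobases apart. Over the 16 neighbouring pairs in ATPase genes the median gap was 4.19 kb, and over 4288 pairs of all listed regions 4.63 kb. Gaps of at most 1000 bases made up 3 of the 16 (18.75%), in Atp2b1, Atp9a and Atp9b, with a background of 7.93% of the 4288. Pairs under the Atp8b2 name are counted among the 16, though they may not lie in 1 gene. Whether gaps span introns was not analysed here. Regions under 100 bases made up 11 of the 35 (31.4%), with a background of 18.5% of all peaks. Of the 12 regions under flippase names, 6 were that short (4 of 8 without the Atp8b2 name).

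**Figure D4:**
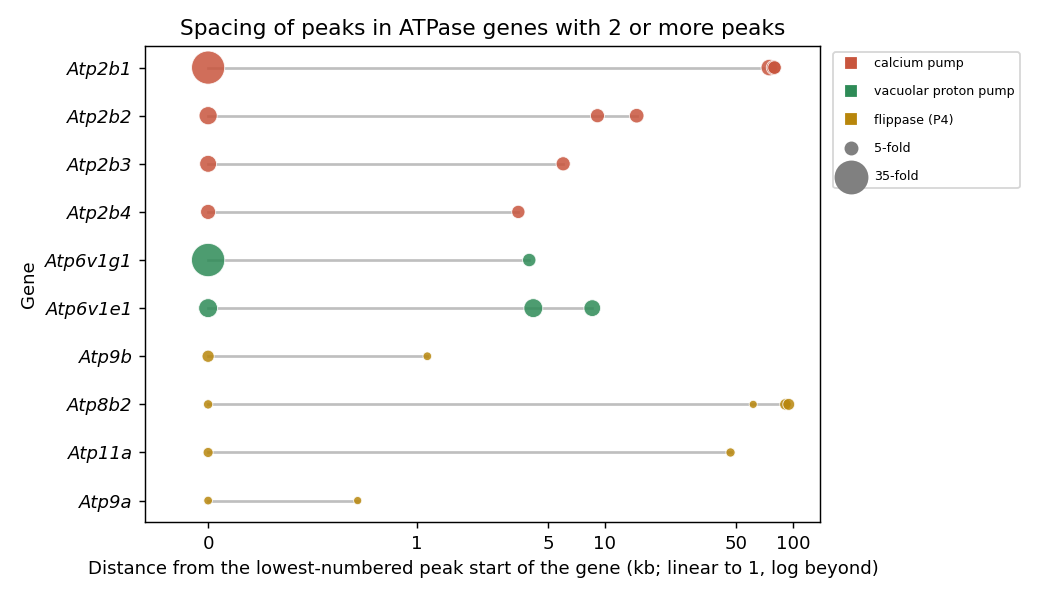
Distance in kb (x axis, linear to 1 and logarithmic beyond) of each peak start from the lowest peak start of the gene, for the 10 ATPase genes with 2 or more peaks (y axis). Point area is proportional to fold and colour gives the class, and the strongest Atp2b1 peak stands 74.8 kb from the next.

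The deposited annotation differed between the classes, which is a property of the annotation and not of the peaks. All 11 ion pump genes carried a pathway entry and none of the 6 flippase and 2 Atp13a names did, against 34.3% of all gene names. The cAMP signalling term was carried by 8 of the 11, all of them Na/K or calcium pumps. Its background was 4.71% of the 1445 genes with a pathway entry. The same 8 also carried the terms for pancreatic secretion (background 1.8%) and cGMP-PKG signalling (4.01%). The calcium signalling term was carried by the 5 calcium pumps, with a background of 3.18%. The synaptic vesicle cycle term was carried by the 3 vacuolar proton pump genes, of 23 genes in the whole table (background 1.59%). The same 3 carried the term for collecting duct acid secretion (0.277%). By cell component, the recycling endosome term was carried by Atp11a, Atp11b and Atp9a among others, and the lysosomal membrane term by Atp11a, Atp13a2, Atp6v1e1 and Atp6v1g1 among others. These entries describe gene products and do not depend on the peaks.

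Of 60 pump partners with a current gene entry 12 had a peak (20%), near the background of 17.3% of coding genes. Of 11 genes that bind the Na/K pump, Fxyd1 at 4.39-fold and Nkain3 at 2.88-fold had a peak, both with scores under 10. Of 13 flippase chaperones and scramblases 2 had one. Tmem30a, the subunit that most P4 ATPases need to leave the endoplasmic reticulum, was at 5.53-fold with a score of only 4.7. Ano6, a calcium-activated scramblase that lets lipids cross the membrane both ways, had 4 peaks, the highest at 10.82-fold. Of 15 calcium pump regulators and exchangers 5 had a peak (33.3%), a share above that background, led by the exchanger Slc24a3 at 13.82-fold. Calm2, a calmodulin gene whose product activates plasma membrane calcium pumps, followed at 12.77-fold with peaks on chromosomes 6 and 15, so its locus is uncertain, and Slc24a2 was at 5.02-fold.

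The remaining lists had shares near the background of 17.3%. Of 13 genes listed as assembly factors and regulators of the vacuolar proton pump 2 had a peak (15.4%). They were Ncoa7 at 12.81-fold and Oxr1 at 6.66-fold, both with a TLDc domain. Of 8 copper handling genes with a current entry 1 had a peak (12.5%). It was Cox17, a copper chaperone of mitochondria, which had 3 peaks with folds of 17.27, 12.22 and 37.54 and scores of 1001.2, 561 and 1677.71. Of 17 genes of the mitochondrial F-type ATP synthase with such an entry 3 had a peak (17.6%). Atp5if1, its inhibitor, had folds of 26.27 and 28.92, both with a score of 3100, under the deposited name Atpif1. Atp5me was at 7.39-fold and Atp5mc3 at 5.32-fold.

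The ATPases were set beside other families of membrane transport, as a description with no test. By current symbols 18 of 68 coding ATPase genes had one (26.5%), with a background of 17.3% of 23154 coding genes. The shares were 8.64% of 382 solute carriers, 13.7% of 95 potassium channel genes and 9.26% of 54 ABC transporters. The median highest fold was 7.73 for the 19 ATPase names, 6.495 for 34 solute carriers, 5.9 for 13 potassium channel genes and 6.73 for 5 ABC transporters. Peaks per listed gene were 1.84, 1.68, 1.15 and 1.4. Expression in these neurons is not in the table, and how far these shares follow it was not tested.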

How the data were processed

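Per the labels' protocols, m6A-containing RNA was immunoprecipitated with a kit and directional libraries were made. HISAT2 2.0.4, STAR and cutadapt 1.9.3 appear in the submitters' processing notes, with no role stated. Per the file headers, peaks are those of MACS; its version, its thresholds and the build stay unnamed in the sources used here. The table as deposited gives each peak a fold enrichment (a linear ratio), a score of 10 times the −log10 of p, and a false discovery rate in percent, which is 100 throughout and was not used.

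Members were taken by deposited name. Classes follow the subfamily number. A gene's highest fold is that of its strongest peak. Genes were matched to a RefSeq gene table (GRCr8, names and chromosomes only) by transcript accession (6289 peaks), gene ID (1920) or symbol (34), and 269 stayed unmatched. The partner and marker lists were matched by current symbol. The rule names every ATPase gene with a peak, but some members count in the totals and are not reported here one by one. Up to 3 members of each partner list are named. Members and lists were chosen with earlier results of these data known. No test was run, since each group has 1 library. Counting and medians were tested on simulated data. Alternatives were stricter p limits, regions of at least 100 bases, current symbols, joined regions, and mean or per-peak folds. Peak sequences and places within transcripts were not analysed here. Python 3.11.15, pandas 2.3.3, numpy 2.4.6 and matplotlib 3.10.9 were used.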

Additional observations from a re-analysis of the deposited data

How the results depend on the processing

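No paired analysis was possible because each group has 1 library. Values are said to have moved where they changed by over 1.5 times, and of the recomputed values for all ATPases and for classes 10 moved and 110 did not. Many of the 110 could not move, because the setting left the peaks of that class untouched. Classes that lost all their peaks under a setting are in neither count, so the counts do not measure stability. At a p of at most 1e-5 the ATPases went from 35 peaks in 19 genes to 17 peaks in 11 genes, the flippases to 1 peak per gene, and the vacuolar median highest fold from 12.17 to 24.945. At a p of at most 1e-10 there were 14 peaks in 9 genes, the median highest fold of the ATPases went from 7.73 to 11.83, the vacuolar median was again 24.945, and no flippase or Atp13a peak was left. With regions of at least 100 bases the medians were 17.91 for the Na/K pump and 24.93 for the vacuolar pump, and the highest fold of Atp2b1 went from 37.4 to 9.29, since its strongest region has 33 bases. Current symbols (31 peaks in 18 genes), joined regions (32 peaks), mean or per-peak folds and a p of at most 0.05 moved none of these. The same held for 2 settings chosen after the data were seen, without the Ubap2l peaks and without Atp2b3. At a p of at most 0.05 the flippase names still fell from 12 peaks in 6 genes to 3 peaks in 2 genes. Their peaks per gene and median highest fold changed less than that limit of 1.5 times. Ion pump and flippase folds did not overlap under any setting that left peaks under flippase names. That followed from the main result and adds no support, since these settings only removed peaks or joined them at their highest fold. At a p of at most 1e-5 the one peak left was on the Ubap2l transcript, so without the Atp8b2 name no flippase peak remained for the comparison, and at a p of at most 0.05 only 1 did. Depth is unknown.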

Other observations

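Region lengths of the plasma membrane calcium pump genes were noticed after the values were seen. All 11 regions had a length that is a multiple of 3, as did 25 of the 35 ATPase regions (71.4%) and 40.0% of all 8512. A length of 126 bases occurred in 2 regions of Atp2b2 and 1 of Atp2b4, and in 57 regions of the whole table. A length of 162 bases occurred once in Atp2b1 and once in Atp2b4, and in 50 regions of the whole table. Whether regions end at exon borders was not tested.

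In each of the 4 plasma membrane calcium pump genes the highest fold was at the peak with the lowest coordinate. This held for 8 of the 10 ATPase genes with 2 or more peaks, the exceptions being Atp6v1e1 and Atp8b2, with a background of 38.2% of 1880 such genes. The table gives no strand, so the lowest coordinate is not known to be the 5′ or the 3′ end.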
